A study of Mus musculus with 19 samples.

Results

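The 9 genes described here, Grhl1, Grhl3, Ovol1, Klf4, Zfp750, Prdm1, Gata3, Maf and Cebpa, encode transcription factors of squamous differentiation. They were listed by name, and all 9 of 9 are among the 24689 gene symbols measured by bulk RNAseq of tongue epithelium. Transgenes had been induced for 15 days in mice of 8 to 16 weeks. The N epithelia (5 mice) are the controls. The E epithelia (5 mice) carry Krt14-CreERT, LSL-rtTA and tetON_E6-E7, which encodes the papillomavirus oncogenes E6 and E7. The Y epithelia (3 mice) carry Krt14-CreERT, LSL-rtTA and tetON_YAP1S127A, an active form of the transcriptional coactivator YAP. The EY epithelia (6 mice) carry all 4 of these alleles. Of the N mice, numbers 1 to 3 carry Krt14-CreERT with LSL-rtTA, number 4 carries LSL-rtTA without a Cre, and number 5 carries Krt14-CreERT with both effector transgenes but no rtTA. All groups also carry a tetON_H2B-GFP reporter by the design of the study, and all received tamoxifen into the tongue and doxycycline in the chow. The Krt14 promoter directs the Cre to basal cells, and the RNA came from the whole dissected epithelium. At an earlier time than this, the study found cells with the reporter through the whole depth of EY epithelia. Values are TPM, read counts scaled to a fixed total and corrected for the length of a gene, and every mouse was a separate sample. Whole reads were worked out from the steps of the TPM values, and numbered 8798700 to 10654405 per N mouse, 8285602 to 9482472 per E mouse, 8269674 to 9249340 per Y mouse and 8841013 to 11007304 per EY mouse.

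Stratified squamous epithelia renew from a basal layer, and cells that leave it switch on a program of keratins, envelope proteins and barrier lipids as they move outwards. Grainyhead-like, OVOL, KLF, MAF, C/EBP, GATA and PRDM factors act in this switch, along with ZNF750, called Zfp750 in mice. The lining of the tongue is such an epithelium, with keratinized papillae on its upper surface.

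All comparisons came from 1 limma model of log2(TPM + 0.1) over the 19 mice, fitted to the 22745 genes that reached 0.1 TPM in 3 or more mice. A gene was called when its Benjamini-Hochberg adjusted p over all these genes was below 0.01 and its absolute log2 fold change above 1. The comparisons of EY, Y and E with N share the N mice, so their values are given side by side. Against N, the log2 fold changes of all genes tested had a median of 0.33 (EY), 0.13 (Y mice) or 0.07 (E mice). Median-of-ratios scaling of the mice brought the EY median to 0.01, so the EY values of the members are also given relative to the 0.33. This shift moved the split of the calls over all genes in EY against N, from 2858 higher and 1299 lower genes to 1540 higher and 1972 lower genes after scaling.

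The labels of the groups were checked with 4 genes. The YAP target Amotl2 had a mean of 15.8 ± 2.91 TPM (SD, n = 5) among N, 14.005 ± 2.59 (n = 5) among E, 53.7 ± 11.7 (n = 3) among Y and 66.3 ± 10.0 (n = 6) among EY mice. Ccn1, another YAP target, stood at 108 ± 18.4 TPM among N, 103 ± 46.0 among E, 336 ± 15.3 among Y and 392 ± 102 among EY mice. Mcm2, a replication gene under control of E2F, stood at 10.3 ± 1.01 TPM among N, 20.3 ± 3.72 among E, 15.03 ± 1.16 among Y and 34.7 ± 7.82 among EY mice. Cdkn2a, which rises when E7 inactivates the retinoblastoma protein, had 8 reads in all over the N mice, 79 over E, 5 over Y and 98 over EY. Amotl2 and Ccn1 were high in the Y and EY mice, and Cdkn2a had most of its reads in the E and EY mice. The mean of Mcm2 was highest in EY and lay between N and E in Y, where mice 1 and 3 were above E mouse 1. The 7 epithelium markers summed to 108808 ± 24404 TPM among N, 97706 ± 20414 among E, 79940 ± 24143 among Y and 52652 ± 5453 among EY mice, with Krt13 the most abundant, and none of them was under 1 TPM in every mouse. Krt13 and Krt4 fell in EY against N (log2 fold changes -1.75 and -1.61), whereas Epcam and Krt14 rose (1.85 and 1.43, all 4 at a limma adjusted p below 0.01), so the sum does not follow every gene of the list.

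Of the 9 members, Klf4 had the highest and Gata3 the lowest mean TPM in all 4 groups. In N epithelia the order of the means was Klf4 (514 ± 51.4 TPM), Cebpa (157 ± 17.1), Ovol1 (104 ± 18.8), Zfp750 (84.9 ± 12.98), Maf (35.5 ± 9.12), Grhl3 (34.3 ± 5.02), Grhl1 (30.5 ± 2.08), Prdm1 (6.08 ± 1.29) and Gata3 (0.0856 ± 0.0894), all with SD and n = 5. Neighbours whose N mice overlapped in level were Ovol1 with Zfp750, Maf with Grhl3, and Grhl3 with Grhl1. Maf stood between Zfp750 and Grhl3 in N and between both grainyhead-like genes and Prdm1 in the other groups, and its E mice overlapped with those of Grhl3 while its Y and EY mice lay below those of Grhl1. Its EY mice overlapped with those of Prdm1, and Maf was above Prdm1 in 3 of 6 of these mice. In EY epithelia the means of Zfp750 (70.6 ± 21.3 TPM, n = 6) and Ovol1 (63.2 ± 12.99) had changed places, and the mice of both genes overlapped.

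**Figure D1:**
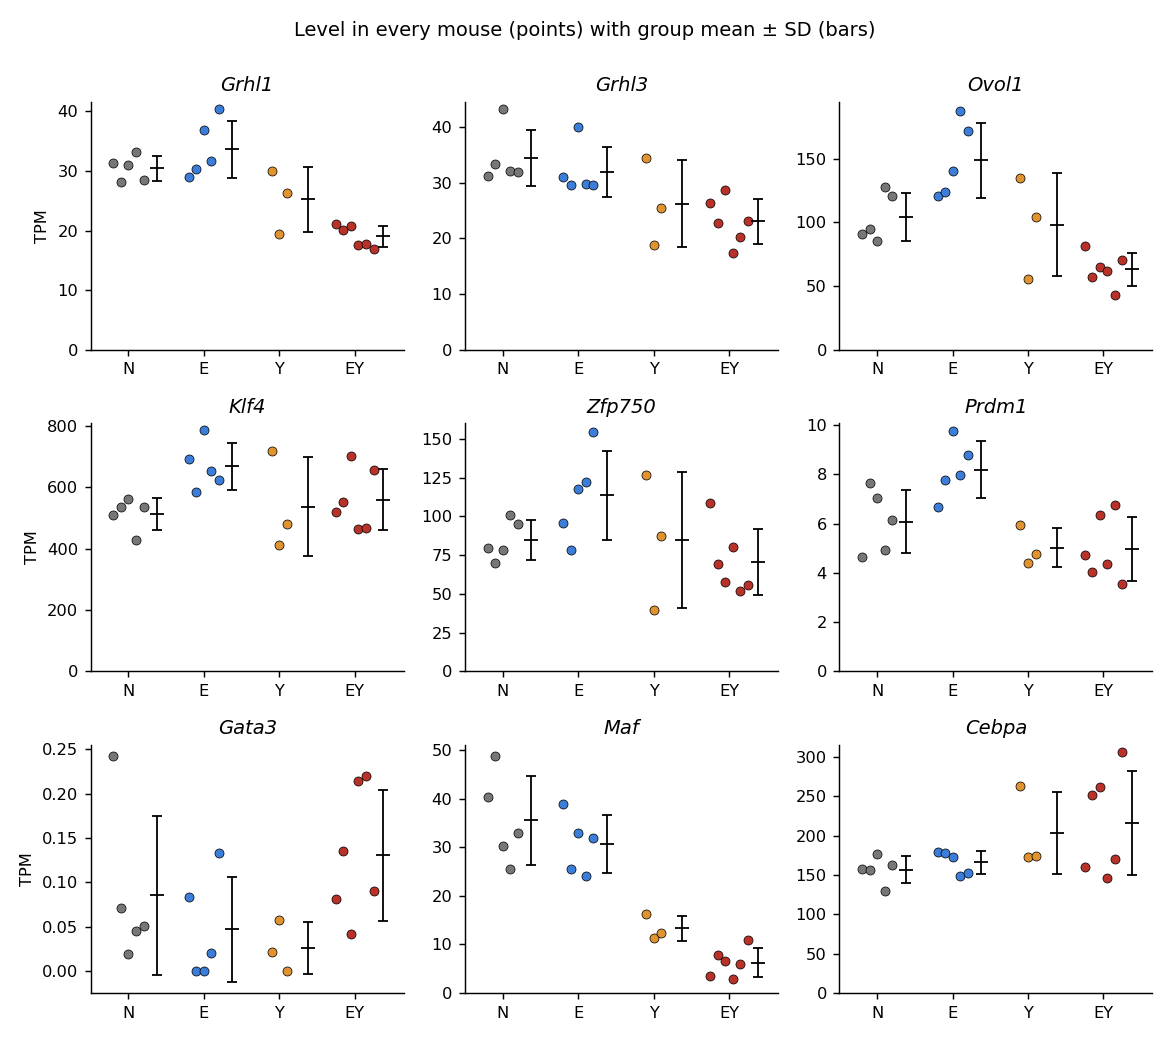
TPM (vertical axes, linear) of the 9 members in each mouse of the N, E, Y and EY groups, with the group mean and SD as black bars. Maf lies at 25.6 to 48.8 TPM in N and at 2.89 to 10.9 TPM in EY epithelia, while Klf4 and Cebpa overlap between N and EY.

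In EY against N epithelia, 1 of 9 members was called, Maf, beside 18.3% of all genes tested. In Y against N it was again 1 of 9, Maf, beside 4.58% of all genes. In E against N limma called 0 of 9 members, beside 1.20% of all genes, with 3 of 9, Ovol1, Klf4 and Prdm1, at an unadjusted p below 0.05 (all genes 14.8%) and 0 of 9 by limma voom on the recovered reads (all genes 1.17%). In EY against Y limma called 0 of 9, beside 2.00% of all genes, with 4 of 9, Grhl1, Ovol1, Gata3 and Maf, at an unadjusted p below 0.05 (all genes 23.9%) and 1 of 9, Maf, by limma voom (all genes 2.15%). In EY against E, 2 of 9 were called, Ovol1 and Maf, both lower in EY, beside 12.8% of all genes. In Y against E limma called 0 of 9, beside 2.48% of all genes, with 4 of 9, Grhl1, Ovol1, Prdm1 and Maf, at an unadjusted p below 0.05 (all genes 23.3%) and 1 of 9, Maf, by limma voom (all genes 2.85%). For the interaction EY - E - Y + N, which asks whether EY departs from the sum of both single changes, limma called 0 of 9, beside 0.176% of all genes, with the same 4 as in EY against Y at an unadjusted p below 0.05 (all genes 13.5%) and 0 of 9 by limma voom (all genes 0.519%). Gata3, in both of these sets, had 0 to 14 reads a mouse.

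Without the limit on the fold change, 4 of 9 members were lower in EY than in N at an adjusted p below 0.01, namely Grhl1, Grhl3, Ovol1 and Maf, beside 7.97% of all genes lower in this way. In EY against E these were Grhl1, Ovol1, Prdm1 and Maf, again 4 of 9, beside 7.16%. After median-of-ratios scaling 3 of 9 members, Grhl1, Ovol1 and Maf, passed both limits as lower in EY than in N, beside 8.67% of all genes. No EY mouse reached the lowest N mouse for 4 of 9 members, Grhl1, Grhl3, Ovol1 and Maf, which held for 6.49% of all genes. The same 4 genes had every EY mouse below every E mouse (all genes 6.53%), and Maf had every EY mouse below every Y mouse (all genes 3.37%). Every Y mouse lay below every N mouse for Maf (all genes 5.59%) and below every E mouse for Maf and Prdm1 (all genes 6.50%). Klf4 was the 1 member with every E mouse above every N mouse (all genes 3.93%).

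**Figure D2:**
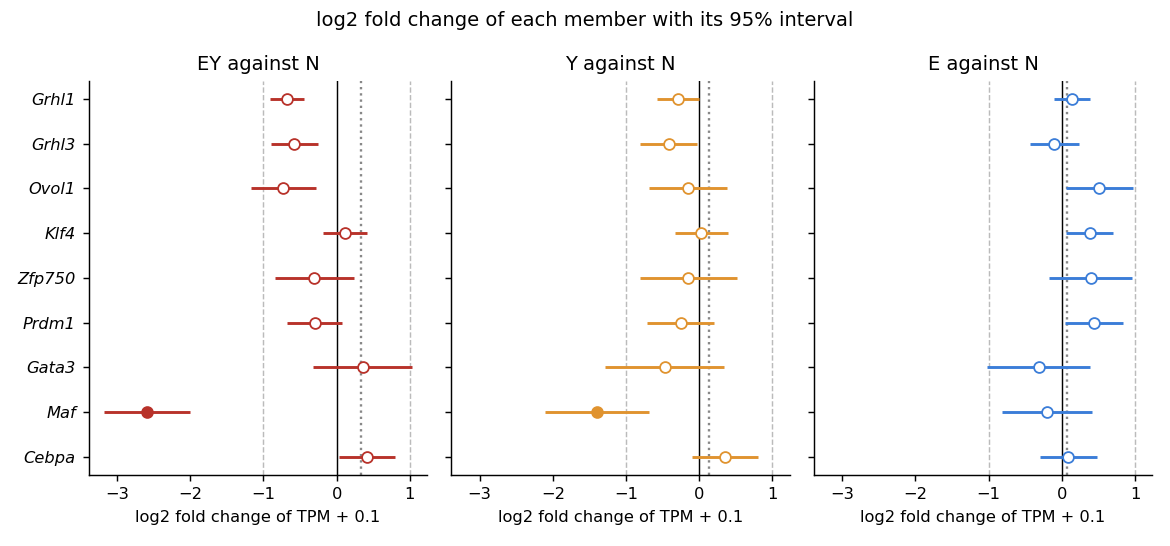
The log2 fold change of TPM + 0.1 (horizontal axes) of each member in EY, Y and E against N, with the 95% confidence interval as a line and filled points for called genes. The dashed lines mark -1 and 1, the dotted line the median of all genes, and Maf is the called member at -2.59 in EY and -1.39 in Y.

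Maf, a leucine zipper factor of late epidermal differentiation, was the member with the largest log2 fold change in EY and in Y against N. In E against N the largest was that of Ovol1 (0.51), and in the interaction that of Gata3 (1.14), neither of them called. The N mice 1 to 5 were at 40.3, 48.8, 30.2, 25.6 and 32.8 TPM. The E mice were at 38.8, 25.5, 32.9, 24.0 and 32.0 TPM, the Y mice at 16.2, 11.3 and 12.3 TPM, and the EY mice at 2.89 to 10.9 TPM with a median of 6.25. All N and E mice were high and intermixed, all Y mice were lower than any of them, and the highest EY mouse lay just under the lowest Y mouse. Maf fell in EY against N, at a log2 fold change of -2.59 (its standard error 0.28, limma adjusted p = 9.29e-07), which is -2.92 relative to the median of all genes and -2.96 after scaling. In Y against N it fell, at a log2 fold change of -1.39 (its standard error 0.34, adjusted p = 0.00875). In E against N the log2 fold change was -0.20, with a 95% confidence interval from -0.81 to 0.42 (adjusted p = 0.840). In EY against E it fell, at a log2 fold change of -2.39 (its standard error 0.28, adjusted p = 3.89e-06). The log2 fold change in EY against Y was -1.20, with an interval from -1.89 to -0.51 (limma adjusted p = 0.0293), and in Y against E it was -1.20, from -1.91 to -0.48 (adjusted p = 0.0320). The interaction was -0.9997 with an interval from -1.92 to -0.08 (adjusted p = 0.324), so a departure from the sum of both changes did not pass the test.

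The call of Maf in Y against N lay close to the limit. Its log2 fold change stayed between -1.55 and -1.27 without 1 mouse at a time, but the adjusted p was over 0.01 in 13 of 19 such fits. These were the fits without N mouse 1 (adjusted p = 0.0188), 2 (0.0199), 3 (0.0127) or 5 (0.0161), without E mouse 2 (0.0112), 3 (0.0120), 4 (0.0104) or 5 (0.0117), without Y mouse 1 (0.0154), 2 (0.0412) or 3 (0.0425), and without EY mouse 3 (0.0110) or 5 (0.0113). With only N mice 1 to 3 the log2 fold change was -1.56 (adjusted p = 0.0177). With all mice, Maf was also called in Y against N after median-of-ratios scaling (-1.59, limma adjusted p = 0.0033) and after quantile normalization (-1.65, limma adjusted p = 0.0022). In EY against Y, Maf was called without EY mouse 6 (log2 fold change -1.38, limma adjusted p = 0.00879).

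In bulk samples, fewer cells that make a transcript and less RNA per cell cannot be told apart. Macrophages also express Maf, so the 8 macrophage markers were summed in every mouse. The sum was 829.3, 277, 134, 117 and 102 TPM in the N mice, 328, 208, 273, 36.9 and 596 in the E mice, 75.2, 61.4 and 95.8 in the Y mice, and 163 to 361 with a median of 268 in the EY mice. Lyz2 was the most abundant of the 8 genes, Adgre1 was under 1 TPM in every mouse, and none was at 0 in all mice. E mouse 4 had the lowest sum, the Y mice came next, N mouse 1 had the highest, and the other N, E and EY mice were intermixed. Genes of the list differed in direction in EY against N, with log2 fold changes of -0.28 for Lyz2 and from 1.41 to 1.68 for C1qa, C1qb, C1qc and Mrc1, none of them called by limma. The part of macrophages in the level of Maf was not tested.

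Gm15655 is annotated on the opposite strand to Maf, with exons that overlap. It held 8.94% to 21.1% of the reads of the pair, and its mean was 81.2 ± 22.9 TPM among N, 65.9 ± 8.69 among E, 37.5 ± 7.54 among Y and 13.3 ± 6.96 among EY mice. Likeness of profiles was the mean absolute difference over the 19 mice between log2 values set against their N mean, among 15585 genes tested with a mean of at least 1 TPM. Gm15655 was the gene most like Maf, with a mean difference of 0.22. The use of strand in the counting is not given in the sources used here, so reads of Maf and of Gm15655 may not be separable. The next in likeness were Camkk1 (0.22), which encodes a calcium-dependent kinase, and Trpv6 (0.26), which encodes a calcium channel. Camkk1 had a mean of 12.96 TPM among N and 2.10 among EY mice, and Trpv6 of 4.37 and 0.711.

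Grhl1 and Grhl3 are grainyhead-like factors, which bind the promoters of desmosome and barrier genes. Their promoter windows, from 250 bases before to 50 after an annotated start, are shown because both genes were lower in EY epithelia. RefSeq sequences of build GRCm38.p6 were matched by symbol for 6 of the 9 members. The windows of Grhl1 lie at chr12:24572037-24572336 (plus strand, the first line) and chr12:24580469-24580768 (plus strand, the second line), and that of Grhl3 at chr4:135573583-135573882 (minus strand). Prdm1, at chr10:44458699-44458998 (minus strand), is shown for its match to TGANTCA, in which N stands for any base and is A here. Capitals mark matches on either strand to GGAATG (TEAD), TGANTCA (AP-1 type, with any centre base), AACNGGTT (grainyhead) and CACCC (KLF type). No matches overlap in the windows printed.
Grhl1 first start: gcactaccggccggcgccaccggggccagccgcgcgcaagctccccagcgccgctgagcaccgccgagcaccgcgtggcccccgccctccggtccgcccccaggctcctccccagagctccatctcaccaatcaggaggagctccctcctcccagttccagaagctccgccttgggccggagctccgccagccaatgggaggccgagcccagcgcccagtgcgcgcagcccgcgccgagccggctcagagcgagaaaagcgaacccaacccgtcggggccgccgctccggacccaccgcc
Grhl1 second start: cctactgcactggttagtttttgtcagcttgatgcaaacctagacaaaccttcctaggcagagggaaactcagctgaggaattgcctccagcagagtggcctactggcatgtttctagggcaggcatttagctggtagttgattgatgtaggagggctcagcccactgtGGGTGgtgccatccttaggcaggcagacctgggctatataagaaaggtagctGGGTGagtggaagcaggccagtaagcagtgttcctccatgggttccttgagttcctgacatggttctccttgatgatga
Grhl3: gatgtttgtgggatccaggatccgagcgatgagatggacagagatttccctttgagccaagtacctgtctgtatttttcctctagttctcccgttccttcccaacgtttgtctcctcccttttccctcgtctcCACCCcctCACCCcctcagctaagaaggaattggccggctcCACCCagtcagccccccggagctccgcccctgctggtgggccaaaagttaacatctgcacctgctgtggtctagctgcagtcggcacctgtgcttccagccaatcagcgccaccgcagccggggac
Prdm1: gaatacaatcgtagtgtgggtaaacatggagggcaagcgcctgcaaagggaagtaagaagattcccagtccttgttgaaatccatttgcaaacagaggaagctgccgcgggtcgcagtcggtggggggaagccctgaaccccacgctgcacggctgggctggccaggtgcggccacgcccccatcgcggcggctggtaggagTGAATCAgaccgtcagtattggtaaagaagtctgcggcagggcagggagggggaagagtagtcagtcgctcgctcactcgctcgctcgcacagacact

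The first window of Grhl1 holds none of the 4 motifs, the second holds 2 matches to CACCC and the window of Grhl3 holds 3. The window of Prdm1 holds 1 match to TGANTCA, from 48 to 42 bases before the start. Over the 7 windows of the 6 members, CACCC was found in 4, TGANTCA in 1, and GGAATG and AACNGGTT in 0. Of all 32851 promoter windows, 57.5% hold CACCC, 7.81% TGANTCA, 14.7% GGAATG and 2.09% AACNGGTT. Of the 33 windows of the terminal differentiation genes, 26 hold CACCC, 12 TGANTCA, 6 GGAATG and 2 AACNGGTT. These are letter matches, and binding was not measured in them.

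Grhl1 was at 31.4, 28.2, 30.9, 33.2 and 28.5 TPM in the N mice, and at 29.1, 30.3, 36.8, 31.7 and 40.4 in the E mice. The Y mice were at 30.0, 19.4 and 26.2 TPM, and the EY mice at 17.0 to 21.0 TPM with a median of 18.9. The N and E mice overlapped, the Y mice spread from the N range down to the EY range, and all EY mice were below all N mice. Between EY and N the log2 fold change was -0.68 (95% confidence interval from -0.91 to -0.44, limma adjusted p = 8.73e-05), under the limit on the fold change. Relative to the median of all genes it was -1.01, and after scaling, at -1.05 (adjusted p = 2.45e-06), Grhl1 was called. Its log2 fold change was -0.29 in Y (interval from -0.58 to -0.01) and 0.13 in E against N (from -0.11 to 0.38), with adjusted p of 0.160 and 0.682, and the Y value ran from -0.43 without Y mouse 1 to -0.11 without Y mouse 2. After median-of-ratios scaling the Y value of Grhl1 was -0.49 (limma adjusted p = 0.0331), and after quantile normalization -0.56 (limma adjusted p = 0.0110). The genes most like Grhl1 were Entpd5 (mean absolute difference 0.11 log2 units over the 19 mice) and Zfp706 (0.12).

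Grhl3 was at 31.1, 33.3, 43.2, 32.1 and 31.9 TPM in the N mice, and at 30.9, 29.6, 39.9, 29.7 and 29.6 in the E mice. The Y mice were at 34.5, 18.9 and 25.4 TPM, and the EY mice at 17.4 to 28.6 TPM with a median of 22.9. N mouse 3 and E mouse 3, which are different animals, were each the highest of their group. All EY mice were below all N and E mice. Between EY and N the log2 fold change was -0.58 (interval from -0.90 to -0.26, limma adjusted p = 0.00497), or -0.91 relative to the median of all genes, and -0.96 after scaling. The adjusted p was 0.0178 without N mouse 3, 0.0128 without EY mouse 4 0.0119 without EY mouse 5, and 0.0146 with only N mice 1 to 3. On the log2 scale the difference was -0.42 in Y (from -0.81 to -0.03, adjusted p = 0.139) and -0.10 in E (from -0.44 to 0.23, adjusted p = 0.849). Its Y value was -0.64 without Y mouse 1 and -0.20 without Y mouse 2. With all mice it was -0.62 after median-of-ratios scaling (limma adjusted p = 0.0286) and -0.69 after quantile normalization (limma adjusted p = 0.0117). Grhl2, the third grainyhead-like gene, was at a mean of 2.76 ± 0.444 TPM in N and 3.82 ± 0.213 in EY epithelia (log2 fold change 0.46, adjusted p = 0.00929, and 0.10 after scaling). The log2 ratio of Grhl1 to Grhl2 was 3.43 ± 0.29 (SD, n = 5) among N, 3.40 ± 0.32 among E, 2.81 ± 0.24 (n = 3) among Y and 2.28 ± 0.19 (n = 6) among EY mice. The genes most like Grhl3 were Smap2 (0.13), Sipa1l1 (0.14) and Evpl (0.14), which encodes the envelope protein envoplakin.

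Ovol1 is a zinc finger repressor that restrains growth in cells leaving the basal layer. The N mice were at 91.3, 95.04, 85.5, 128 and 121 TPM, and the E mice at 121, 124, 140, 187 and 172 TPM. The Y mice were at 135, 55.7 and 104 TPM, and the EY mice at 43.0 to 81.6 TPM with a median of 63.4. N mice 4 and 5 were at the level of the lower E mice, the Y mice spread over the ranges of EY, N and E, and the EY mice were below all N and E mice. Ovol1 was lower in EY than in E at a log2 fold change of -1.24 (its standard error 0.21, limma adjusted p = 0.000150), and passed both limits. Between EY and N the log2 fold change was -0.73 (interval from -1.17 to -0.29, adjusted p = 0.00894), or -1.06 relative to the median of all genes, and it was called after scaling, at -1.10 (adjusted p = 0.000540). The adjusted p of the unscaled value was 0.01 or more in 13 of 19 fits without 1 mouse. These left out N mouse 1 (adjusted p = 0.0119), 2 (0.0137), 4 (0.0285) or 5 (0.0262), E mouse 2 (0.0104), 3 (0.0117) or 5 (0.0105), Y mouse 3 (0.0110), and EY mouse 2 (0.0189), 3 (0.0138), 4 (0.0158), 5 (0.0221) or 6 (0.0108). With only N mice 1 to 3 the value was -0.55 (adjusted p = 0.0972). The difference on the log2 scale was 0.51 in E (from 0.05 to 0.97, adjusted p = 0.269) and -0.16 in Y against N (from -0.69 to 0.38, adjusted p = 0.739), and the Y value was -0.43 without Y mouse 1 and 0.21 without Y mouse 2. The interaction was -1.08 (from -1.77 to -0.40, adjusted p = 0.134). Gm31166, a pseudogene on the opposite strand whose exons overlap those of Ovol1, held 15.7% to 21.8% of the reads of the pair and had the profile most like it (0.10), followed by Ralgds and 1810058N15Rik (0.19 and 0.20). Without the use of strand known, the reads of Ovol1 carry the same uncertainty as those of Maf.

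Zfp750, a zinc finger factor that switches on late differentiation genes, was at 79.9, 69.7, 78.4, 101 and 95.3 TPM in the N mice. The E mice were at 95.7, 78.5, 118, 122 and 154 TPM, the Y mice at 127, 39.5 and 87.4 TPM, and the EY mice at 51.8 to 109 TPM with a median of 63.4. All 4 groups overlapped. Fold changes on the log2 scale were -0.30 in EY (from -0.85 to 0.24, limma adjusted p = 0.380), -0.15 in Y (from -0.80 to 0.51) and 0.40 in E against N (from -0.17 to 0.96). Relative to the median of all genes the EY value was -0.63, and after scaling it was -0.68 (adjusted p = 0.0573). The Y value moved to -0.52 without Y mouse 1 and to 0.32 without Y mouse 2. The genes most like Zfp750 were Aqp3, a water and glycerol channel of epidermis (0.21), 1810058N15Rik (0.22) and Rnf144b (0.23).

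Klf4, a Krüppel-like factor needed for the barrier of the skin, was at 509, 535, 561, 428 and 536 TPM in the N mice and at 693, 586, 788, 653 and 624.5 TPM in the E mice. The Y mice were at 719, 411 and 481 TPM, and the EY mice at 465 to 702 TPM with a median of 536. All E mice were above all N mice, the EY mice spread over both, and of the Y mice number 2 was below all N mice. Its log2 fold changes were 0.38 in E (from 0.06 to 0.70, limma adjusted p = 0.224), 0.11 in EY (from -0.19 to 0.42, adjusted p = 0.573) and 0.03 in Y against N (from -0.34 to 0.40, adjusted p = 0.939, with -0.20 without Y mouse 1 and 0.20 without Y mouse 2). The direction in EY depended on the scaling, at -0.26 after median-of-ratios scaling and 0.12 after quantile normalization, and was -0.22 relative to the median of all genes. Of its relatives, Klf5 had means of 79.4 ± 8.73 TPM in N and 122 ± 6.12 in EY epithelia (log2 fold change 0.63, adjusted p = 2.29e-05, and 0.25 after scaling). The log2 ratio of Klf4 to Klf5 was 2.69 ± 0.11 (SD, n = 5) among N, 2.85 ± 0.23 among E, 2.48 ± 0.31 (n = 3) among Y and 2.18 ± 0.25 (n = 6) among EY mice. The genes most like Klf4 were Nr1h2, which encodes a liver X receptor (0.13), Gtpbp1 (0.13) and Plcb3 (0.14).

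Prdm1 encodes the repressor Blimp1, which acts in the cornifying layers and in lymphocytes. It was at 4.65 to 7.63 TPM among the N mice, 6.65 to 9.76 among E, 4.38 to 5.93 among Y and 3.55 to 6.76 among EY mice. Most E mice were above the N mice, the Y mice were below all E mice, and the highest EY mouse overlapped with the lowest E mouse. The fitted log2 fold change was -0.30 in EY (from -0.67 to 0.08, limma adjusted p = 0.197), -0.25 in Y (from -0.71 to 0.20, and -0.16 without Y mouse 2) and 0.44 in E against N (from 0.05 to 0.83, adjusted p = 0.267). In EY against E it was -0.74 (from -1.11 to -0.36, adjusted p = 0.00337, and 0.0121 without E mouse 3), under the limit on the fold change. Relative to the median of all genes the value in EY against N was -0.63, and after scaling it was -0.67 (adjusted p = 0.00499). Pigo (0.15), Clk1 (0.15) and Rnf103 (0.16) were most like it.

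Cebpa, a leucine zipper factor that holds back the cell cycle in differentiating keratinocytes, was at 130 to 177 TPM among N, 149 to 180 among E, 173 to 264 among Y and 146 to 307 among EY mice. Y mouse 1 and EY mice 2, 3 and 6 were above all N and E mice, and the other Y and EY mice were within the N range. The value on the log2 scale was 0.42 in EY (from 0.04 to 0.79, limma adjusted p = 0.0721), 0.36 in Y (from -0.10 to 0.81, adjusted p = 0.3004, and 0.16 without Y mouse 1) and 0.09 in E against N (from -0.30 to 0.48, adjusted p = 0.896). The EY value was 0.09 relative to the median of all genes and 0.04 after scaling. Gm45091, on the opposite strand with overlapping exons, held 5.96% to 19.7% of the reads of the pair, so the level of Cebpa is uncertain in the same way. Cebpb was more abundant, with means of 349 ± 104 TPM among N and 435 ± 73.2 among EY mice, and the log2 ratio of Cebpa to Cebpb was -1.11 ± 0.31 in N and -1.05 ± 0.36 in EY. Abhd17a (0.13), Tle1 (0.16) and Csnk1g2 (0.16) were most like Cebpa.

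Gata3, which acts in the barrier of skin and in T cells, was at the edge of detection. It had 14, 4, 1, 3 and 3 reads in the N mice, 5, 0, 0, 1 and 7 in E, 1, 3 and 0 in Y, and 2 to 11 in EY. It was listed at 0 in 3 mice and reached the 0.1 TPM of the filter in 5 of 19. Gm13256 and 9230102O04Rik, whose exons overlap those of Gata3, are not among the symbols and were not analysed. The interval of the fitted log2 fold change in EY against N ran from -0.32 to 1.03 (limma adjusted p = 0.405), so it held both directions. The 8 T cell markers, with Trac the most abundant and Cd4 and Cd2 under 1 TPM in every mouse, summed to 0.825 to 4.47 TPM among N, 0.775 to 8.73 among E, 1.83 to 6.01 among Y and 6.58 to 11.2 among EY mice. Their part in the reads of Gata3 was not tested. Genes of like profile are not given for Gata3, with so few reads.

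**Figure D3:**
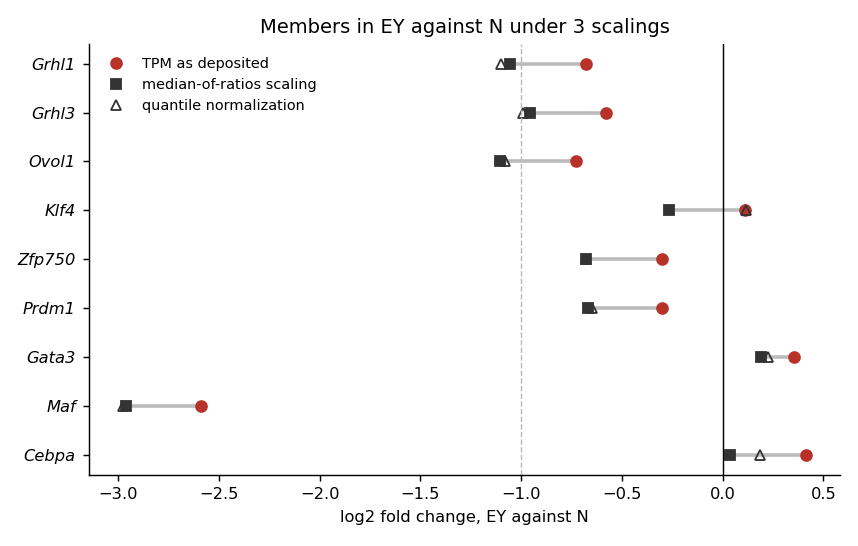
The log2 fold change of each member in EY against N (horizontal axis) from the TPM as deposited, after median-of-ratios scaling and after quantile normalization. Grhl1 moves from -0.68 to -1.05 and Ovol1 from -0.73 to -1.10 with median-of-ratios scaling, past the dashed line at -1, and Klf4 changes sign.

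The 3 Y mice differed among themselves. Y mouse 2 was the lowest of the 3 for 8 of 9 members and Y mouse 1 the highest for 8 of 9. The share of all genes with this order was not worked out, so it cannot be read as particular to the members. The epithelium markers summed to 103789, 80518 and 55513 TPM in Y mice 1, 3 and 2, and the skeletal muscle markers to 7.22, 16.7 and 137 TPM. The part of this difference in tissue content was not tested. The spread in Y was 51.8% of the mean for Zfp750 and 40.7% for Ovol1, against 15.3% and 18.1% in N epithelia. For Maf it was 19.6% in Y and 25.7% in N.

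**Figure D4:**
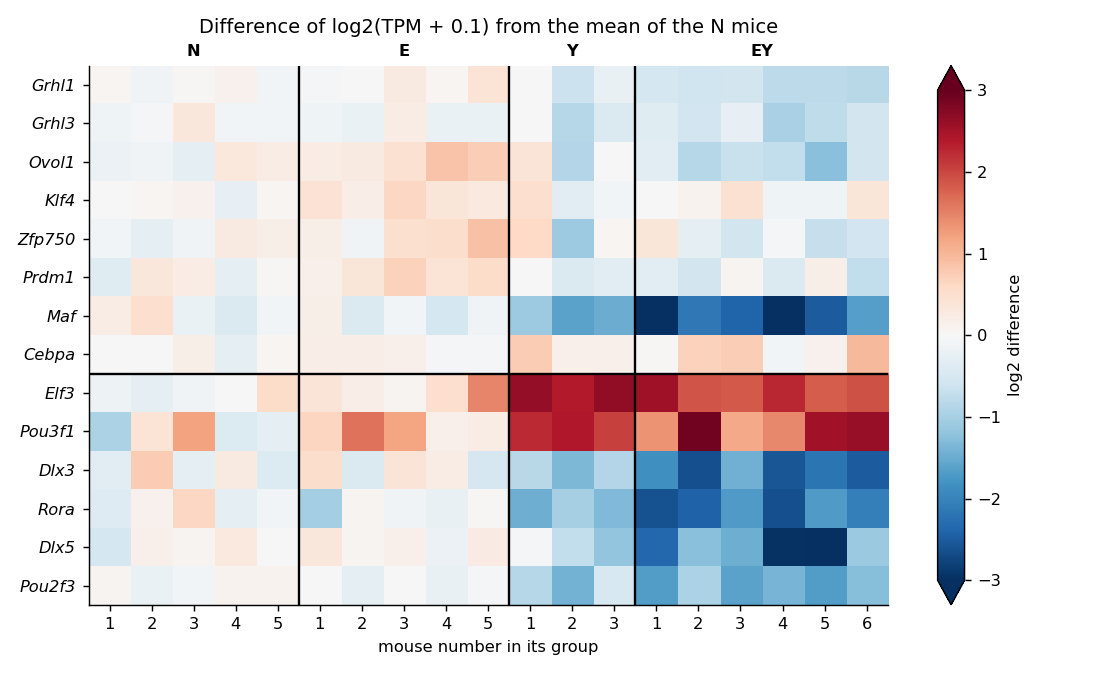
Difference of log2(TPM + 0.1) from the mean of the N mice (colour, with the scale ended at -3 and 3) for 8 members and 6 called squamous regulators in each mouse, in columns by group. Maf, Dlx3, Rora, Dlx5 and Pou2f3 are low in the EY mice, and Elf3 is high in the Y and EY mice, while for Pou3f1 the EY mice overlap with N and E mice.

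Relatives of the members by gene family were listed too, 31 genes of which 26 are among the symbols and 24 were tested. In EY against N, 3 were called higher and 0 lower by limma, with a median log2 fold change of 0.41, beside 0.33 over all genes. Of all 22745 genes tested, limma called 2858 higher and 1299 lower, or 18.3% in all. By limma voom 3 relatives were higher and 1 lower (all genes 17.7%), and after scaling 2 and 1 (all genes 15.4%). In Y against N limma called 1 higher and 0 lower (median 0.26), beside 4.58% of all genes. By limma voom these were also 1 and 0 (all genes 4.74%). In E against N limma called 0 of 24 (median 0.23), beside 1.20% of all genes. There 6 had an unadjusted p below 0.05 (all genes 14.8%), and limma voom called 0 (all genes 1.17%). Klf7 rose from a mean of 0.791 ± 0.202 TPM (SD, n = 5) among N mice to 3.33 ± 0.770 (n = 3) among Y and 5.03 ± 1.83 (n = 6) among EY mice, with log2 fold changes of 1.95 in Y (limma adjusted p = 0.000317) and 2.47 in EY (adjusted p = 4.79e-07). Cebpd, induced in keratinocytes under stress, rose from 12.6 ± 3.86 TPM in N to 38.3 ± 14.4 in EY epithelia (log2 fold change 1.56, adjusted p = 4.62e-05). Gata2, the third call in EY, was listed at 0 in all N mice and had 21 reads in all over the EY mice, and its adjusted p was over 0.01 in 15 of 19 fits without 1 mouse. These left out N mouse 1 (adjusted p = 0.0175), 2 (0.0176), 3 (0.0181), 4 (0.0186) or 5 (0.0186), E mouse 1 (0.0113), 2 (0.0115), 3 (0.0109), 4 (0.0113) or 5 (0.0108), Y mouse 1 (0.0115), and EY mouse 1 (0.0177), 3 (0.0195), 5 (0.0122) or 6 (0.0225).

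Of 27 other regulators of squamous differentiation, all tested, 2 were called higher and 7 lower in EY against N, with a median log2 fold change of -0.39. Of all 22745 genes, 2858 were called higher and 1299 lower. After scaling these were 2 and 8 (all genes 1540 and 1972), and by limma voom 2 and 7 (all genes 17.7%). In Y against N 3 were called higher and 1 lower (median -0.07), beside 790 and 252 of all genes. After scaling these were 2 and 4 (all genes 524 and 392), and by limma voom 3 and 4 (all genes 4.74%). In E against N limma called 0 (median 0.02), beside 1.20% of all genes. There 3 had an unadjusted p below 0.05 (all genes 14.8%), and limma voom called 0 (all genes 1.17%). Dlx3, a homeobox factor of suprabasal cells, was at 27.3 to 61.7 TPM over the N mice, 25.3 to 52.4 over E, 14.2 to 20.3 over Y and 5.73 to 13.3 over EY. All Y and EY mice were below all N and E mice. Dlx3 fell in EY with a log2 fold change of -2.19 (limma adjusted p = 3.93e-06), and its value in Y was -1.01 (adjusted p = 0.0408). Dlx5, another homeobox factor, fell in EY by 2.16 on the log2 scale (adjusted p = 0.000266). Rora, a nuclear receptor, fell from 1.54 ± 0.491 TPM in N to 0.263 ± 0.109 in EY (log2 fold change -2.19, adjusted p = 3.82e-06, and -0.99 with a pseudocount of 1 TPM). Pou2f3 fell from 0.638 ± 0.0647 to 0.178 ± 0.0576 TPM (log2 fold change -1.43, adjusted p = 2.00e-05, and -0.48 with a pseudocount of 1 TPM). Elf3, an ETS factor of epithelia, rose from 13.6 to 24.5 TPM over the N mice to 88.3 to 106 over Y and 59.1 to 98.8 over EY, with log2 fold changes of 2.56 in Y (adjusted p = 7.70e-06) and 2.05 in EY (adjusted p = 8.30e-07). Pou3f1 rose from a mean of 1.43 ± 0.957 TPM among N mice to 6.18 ± 0.751 among Y and 5.84 ± 2.99 among EY mice (log2 fold change in EY 1.99, adjusted p = 0.000685, and 0.0112 with only N mice 1 to 3), and its lowest EY mouse, at 2.84 TPM, lay under the highest N and E mice (2.99 and 4.04 TPM).

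**Figure D5:**
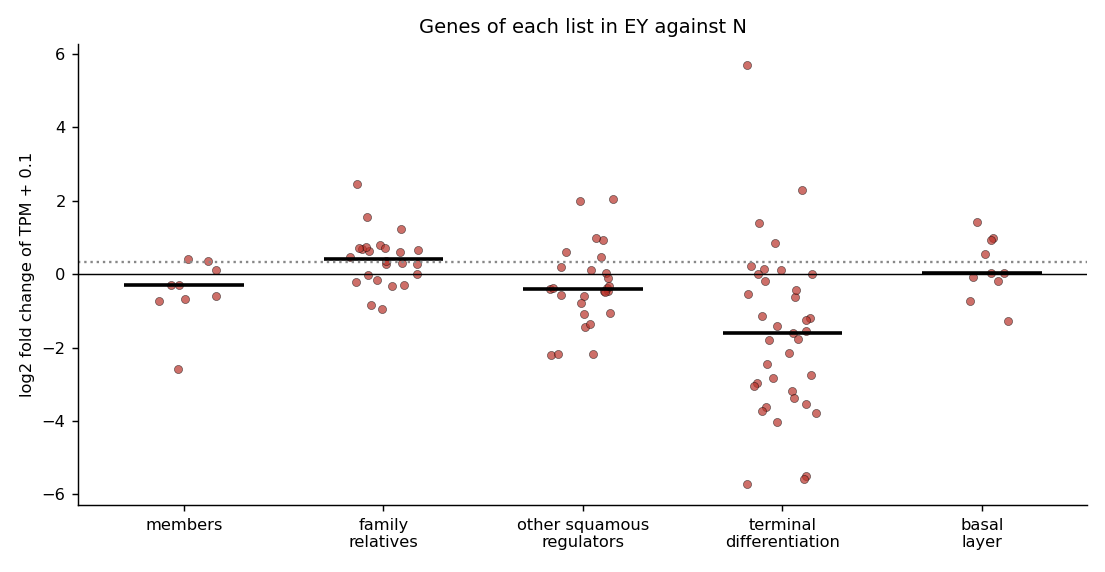
The log2 fold change of TPM + 0.1 in EY against N (vertical axis) of each gene of the members and 4 other lists, with the median of each list as a black line and the median of all genes as a dotted line. The medians are -0.30 for the members, -0.39 for the other squamous regulators and -1.61 for the terminal differentiation genes. All lists were chosen with earlier results of these data known.

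Genes of terminal differentiation, 37 of 38 tested, are the genes that such regulators serve. In EY against N 2 were called higher and 23 lower, beside 2858 and 1299 of all 22745 genes. The median log2 fold change was -1.61, and that of the 9 members -0.30. Both lists were chosen with earlier results of these data known, so these medians are not a test of a contrast between them. In Y against N 2 were higher and 7 lower (median -0.60), beside 790 and 252 of all genes. In E against N limma called 1 higher and 0 lower (median 0.07), beside 264 and 10 of all genes. At an unadjusted p below 0.05 these were 3 and 1 (all genes 14.8%), and by limma voom 1 and 0 (all genes 1.17%). The gene called in E, Casp14, lost its call after median-of-ratios scaling (log2 fold change 1.08, limma adjusted p = 0.0111). It was called after quantile normalization (1.06, limma adjusted p = 0.0071). The suprabasal keratin Krt10 fell from a mean of 751 ± 294 TPM (n = 5) among N mice to 138 ± 18.8 (n = 3) among Y and 15.3 ± 7.59 (n = 6) among EY mice, with log2 fold changes of -2.36 in Y (limma adjusted p = 0.00146) and -5.73 in EY (adjusted p = 3.12e-09). Krt76, a keratin of the palate and tongue, fell from 3682 ± 1112 to 722 ± 417 and 98.6 ± 67.9 TPM, and the envelope protein gene Hrnr from 302 ± 127 to 57.0 ± 11.4 and 7.29 ± 4.47 TPM. Their log2 fold changes in EY were -5.49 and -5.59, and that of Calm4, a calcium-binding protein gene of skin, was -4.02. Casp14 rose, from a mean of 13.2 ± 2.60 TPM among N mice to 71.8 ± 24.7 among Y and 64.6 ± 12.5 among EY mice (log2 fold change in EY 2.28, adjusted p = 6.22e-08). Sprr2d was at 0.640 to 41.4 TPM over the N mice and 98.8 to 288 over the EY mice (log2 fold change 5.70, adjusted p = 0.000114).

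Of 10 genes of the basal layer, 1 was called higher and 1 lower in EY against N (median 0.02), beside 18.3% of all genes. In Y limma called 0 (median 0.03, all genes 4.58%), and limma voom called 1, Krt14 (all genes 4.74%). In E limma called 0 (median 0.05, all genes 1.20%). There 0 had an unadjusted p below 0.05 (all genes 14.8%), and limma voom called 0 (all genes 1.17%). Krt14 rose in EY with a log2 fold change of 1.43 (limma adjusted p = 0.000402), and Krt15 fell with -1.27 (adjusted p = 0.00281, 0.0175 with only N mice 1 to 3, and 0.0101 with the mouse number as a block). After scaling 1 was called higher and 2 lower in EY (all genes 15.4%), with Col17a1 added (-1.11, limma adjusted p = 1.28e-05). Trp63, which encodes the master factor p63 of these cells, was at 7.68 ± 1.88 TPM among N and 7.69 ± 1.10 among EY mice. Its log2 fold change was -0.35 after scaling (interval from -0.66 to -0.04, limma adjusted p = 0.0706) and -0.36 after quantile normalization, and it was not called. After scaling the medians in EY were -0.68 for the members, -0.77 for the other regulators, -1.99 for the terminal differentiation genes and -0.35 for the basal genes, beside 0.01 for all genes.

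Markers of other cell types differed among the mice. The 8 neutrophil markers, with S100a8 the most abundant and Mpo under 1 TPM in every mouse, summed to 8.20 to 78.2 TPM among N, 5.80 to 85.7 among E, 544 to 961 among Y and 83.6 to 1035 among EY mice. S100a8 and S100a9 are also made by stressed keratinocytes. After scaling, the log2 fold changes against N of S100a8 were 5.24 in Y and 4.38 in EY, both called. Those of Ly6g were 0 in Y and 2.72 in EY, called in EY. In Y against N, Retnlg (3.10), Cxcr2 (1.07), Cd177 (0.81), Mpo (-0.21) and Csf3r (-0.24) were not called. The 7 skeletal muscle markers, with Acta1 the most abundant and Myh2 under 1 TPM in every mouse, summed to 11.3 to 233 TPM among N, 11.4 to 128 among E, 7.22 to 137 among Y and 34.3 to 1264 among EY mice, where mouse 3 was the highest. The 6 fibroblast markers, with Dcn the most abundant, summed to 61.5 to 293 TPM among N, 57.2 to 104 among E, 23.8 to 44.1 among Y and 24.2 to 153 among EY mice. After scaling, Dcn was called lower in EY than in N (log2 fold change -2.73, limma adjusted p = 4.81e-05). Pdgfra was at 0.81, and Col1a1, Col1a2, Col3a1 and Lum were between -0.05 and 0.12, none of them called. The 6 taste bud markers, with Krt18 the most abundant and Gnat3 under 1 TPM in every mouse, summed to 7.91 to 30.6 TPM among N, 8.51 to 16.4 among E, 8.45 to 42.1 among Y and 35.1 to 466 among EY mice. The high sums in EY were those of Krt18 and Krt8, with means of 168 and 36.7 TPM. In EY against N the log2 fold change was 4.83 for Krt18, which limma called, 3.04 for Krt8 (limma adjusted p = 0.0231), -0.85 for Plcb2 (-1.18 and called after scaling) and -0.59 for Tas1r3. Trpm5 went the other way from Plcb2 and Tas1r3, at 0.48 after scaling and not called. The 5 endothelium markers, with Pecam1 the most abundant and the other 4 under 1 TPM in every mouse, summed to at most 3.24 TPM in any mouse. Of the adipocyte markers 2 of 5 are among the symbols, with Fabp4 the most abundant and Cidec under 1 TPM in every mouse. They summed to 0.494 to 5.2 TPM among N, 1.34 to 5.17 among E, 3.96 to 63.0 among Y and 5.93 to 41.3 among EY mice. After scaling, Fabp4 was called higher in EY than in N (log2 fold change 2.53, limma adjusted p = 0.0073). The part of these cell types in the levels of the members was not tested.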

How the data were processed

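Bulk RNAseq of tongue epithelium from 19 mice was analysed. The authors aligned reads to GRCm39 with STAR 2.7.9, sorted them with samtools 1.7, counted genes with HTSeq 0.13.5 and deposited TPM; how counts became TPM is not given in the sources used here. Whole reads were recovered for 24680 of 24680 genes above 0, within 0.01 read, and give the depth. Values of log2(TPM + 0.1), which understate changes of low genes, were fitted for the 22745 genes that reached 0.1 TPM in 3 or more mice. The model used lmFit and a trended eBayes (limma 3.58.1, R 4.3.3); scripts were tested on simulated data. Named genes were the members, the 4 largest called changes in each direction of each list, called relatives, relatives with a stated level, up to 3 genes most like each member but Gata3, and 4 label checks. Genes of the marker lists, genes that overlap a member, Trp63 and Col17a1 were named besides these. Members and lists were chosen with earlier results of these data known. Alternatives were pseudocounts, filters, scalings, control mice, samples fitted, thresholds, limma voom, the mouse number as a block and leaving out each mouse. Overlapping genes were taken from GENCODE M21 on another build, so no coordinates are given from it. Figures used Python 3.11.15 and matplotlib 3.10.9. No batch was given.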

Additional observations from a re-analysis of the deposited data

Results flagged for a closer look

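In 2 of the 27 groups of 5 or 6 mice looked at (9 members in N, E and EY epithelia), 1 mouse stood far from the others of its group on the log2 scale, past Dixon's 95% limit, and chance flags about 1 in 20 groups. Both concern Grhl3. N mouse 3 was at 43.2 TPM, while the other N mice were at 31.1 to 33.3 TPM. E mouse 3 was at 39.9 TPM, while the other E mice were at 29.6 to 30.9 TPM. The groups of 3 Y mice were not looked at in this way.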

How the results depend on the processing

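Of 1808 values of the members under other settings, 1745 kept their direction and their call, which takes the adjusted p and the fold change together, 14 lost the call, 9 gained it and 40 changed sign. An adjusted p that crossed 0.01 without moving the call is not in these counts. Of 606 values in EY against N of the label checks and the largest called changes of the lists, 573 kept both and 33 lost the call. Further named genes, and other comparisons of these genes, were not run in this way. In EY against N, 3 members were called with median-of-ratios scaling (15.4% of all genes), 3 with quantile normalization (15.6%) and 4 with no limit on the fold change (31.9%). In EY against E these numbers were 3 (11.3% of all genes), 3 (11.4%) and 4 (25.3%), with Grhl1 added by both scalings at -1.08 and -1.10. In Y against N, 0 members were called by limma with only N mice 1 to 3 (2.90% of all genes), and 0 to 1 without 1 mouse at a time (2.81% to 4.58%). In EY against Y, 1 was called by limma voom (2.15%), 1 at an adjusted p below 0.05 (3.80%), and 0 to 1 without 1 mouse (0.881% to 2.20%). In Y against E, 1 was called by limma voom (2.85%) and 1 at an adjusted p below 0.05 (4.47%). The replicate block, with the mouse number as a term, gave 1 called member in EY against N (17.5%) and 1 in Y against N (3.79%), but the numbers do not pair the mice, since residuals correlated by -0.0426 to 0.0764 over 24 pairs of mice.

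Log2 fold changes that changed sign were small. With median-of-ratios scaling Klf4 was at -0.26 in EY against N, -0.17 in Y against N and -0.0939 in EY against Y, and Cebpa at -0.0224 in E against N and -0.12 in EY against Y. By limma voom Klf4 was at -0.0529 in EY against N and -0.0708 in Y against N, and Cebpa at -0.0020 in EY against Y. With quantile normalization Cebpa was at -0.0356 in E against N and 0.15 in the interaction. With only N mice 1 to 3, Ovol1 was at 0.0266, Zfp750 at 0.0025 and Klf4 at -0.0339 in Y against N, and Cebpa at 0.0375 in the interaction. With the replicate block Klf4 was at -0.0490 in Y against N, Prdm1 at 0.0411 in EY against Y and Grhl3 at 0.0382 in the interaction. Without 1 mouse at a time, the values in Y against N ran from -0.43 to 0.21 for Ovol1, -0.20 to 0.20 for Klf4 and -0.52 to 0.32 for Zfp750. Those in EY against Y ran from -0.38 to 0.0549 for Grhl3, -0.0890 to 0.32 for Klf4, -0.63 to 0.21 for Zfp750, -0.14 to 0.0785 for Prdm1 and -0.0529 to 0.26 for Cebpa. In Y against E, Gata3 ran from -0.33 to 0.0298, and in the interaction Grhl3 ran from -0.28 to 0.16 and Cebpa from -0.14 to 0.17. With their sign kept, the values in E against N ran from 0.0660 to 0.18 for Grhl1, -0.19 to -0.0171 for Grhl3, -0.31 to -0.0746 for Maf and 0.0241 to 0.14 for Cebpa, and that of Klf4 in EY against N from 0.0446 to 0.16. The cause was not tested. The values of Gata3 rest on 0 to 14 reads a mouse.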
